A study of Mus musculus with 24 samples.

Results

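Trim genes encode tripartite motif proteins, and 68 of the 53465 genes listed for these mouse brains belong to the family as counted here. Members were the genes listed as protein coding whose symbol in GENCODE M21 (mouse genome GRCm38) is Trim followed by a number. Trim30e-ps1, a pseudogene, fell outside that rule and was listed at 0 reads. The data are gene-level read counts of total RNA from brain, in 12 mice, 6 of the wild-derived inbred strain CAST/EiJ (Mus musculus castaneus) and 6 of the wild-derived inbred strain WSB/EiJ (Mus musculus domesticus). The series set these strains side by side because a blocked cerebral artery leaves them with different stroke volumes. Each animal's library was sequenced on 2 lanes, which were summed. The labels used here name strain, tissue and lane, and give no treatment, sex, age or brain region.

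Most tripartite motif proteins carry a RING finger, which transfers ubiquitin to substrates, followed by B-box zinc fingers and a coiled coil through which the proteins pair. The C-terminal part differs between members and sets the target. It holds a PRY-SPRY domain in most, and some members have a COS box that binds microtubules, NHL repeats, or a PHD finger with a bromodomain that reads chromatin. Several PRY-SPRY members restrict viruses or regulate interferon signalling, and some of these occur as copies in clusters that differ between rodent lineages. Other members are known for roles in neurons, among them Trim2, Trim9 and Trim46 in axons.

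Members were sorted into 3 classes by symbol and map position, because the copies of a cluster can be compared with genes that stand alone. Lettered copies are the 11 members whose number is followed by a letter, at Trim12, Trim30, Trim34 and Trim43. Positional neighbours are 19 further members that lie within 500 kb of another member, Trim5 among them. The remaining 38 members are single genes.

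The sequences below show how alike the copies are in the reference. In coding sequence Trim43a and Trim43b were identical at 98.4% of aligned bases, Trim43b and Trim43c at 97.8%, Trim34a and Trim34b at 97.6%, and Trim5 and Trim12c at 96.6%. Of the Trim30 pairs the nearest, Trim30a and Trim30d, reached 90.1%. The 120 bases of the 3 Trim43 coding sequences with the most differences, from base 69 to base 188 of each, held 10 differing positions, which are in capitals (GENCODE M21 transcripts, sense strand).
Trim43a coding sequence: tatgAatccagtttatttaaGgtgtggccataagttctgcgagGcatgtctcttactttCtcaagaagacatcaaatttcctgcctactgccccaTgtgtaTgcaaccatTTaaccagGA
Trim43b coding sequence: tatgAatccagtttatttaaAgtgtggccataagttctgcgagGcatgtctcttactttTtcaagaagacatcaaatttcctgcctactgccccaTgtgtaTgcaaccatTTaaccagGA
Trim43c coding sequence: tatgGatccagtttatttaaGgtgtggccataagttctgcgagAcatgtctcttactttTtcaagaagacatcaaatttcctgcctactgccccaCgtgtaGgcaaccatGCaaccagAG
Between Trim43a and Trim43b the longest identical run was 198 bases. Of the 32-base words in their transcripts, 62.5% (Trim43a), 63.6% (Trim43b), 70.9% (Trim43c), 68.0% (Trim34a), 68.4% (Trim34b), 52.3% (Trim5) and 47.3% (Trim12c) also occur in another gene. Trim30a shared 11.3%, and the median over the 38 single genes was 0.989%.

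RefSeq promoter windows of 300 bases (GRCm38.p6, 250 bases before to 50 after the start) were found for 53 of the 68 members. A form of the interferon-stimulated response element, 2 copies of GAAAC with 1 base between them, was searched on both strands. It occurred in windows of 4 members, all in the chromosome 7 cluster, and in 0.207% of the 32851 windows of all genes. The looser form, 2 copies of GAAA with 2 bases between them, which every match of the first form also holds, occurred in windows of 9 members and in 3.44% of all windows. The 4 windows are shown because these neighbours carry the same element, and their strain values are given further on. The windows of Trim5, Trim12a and Trim12c are largely alike in sequence, so their matches are not separate from each other. Capitals mark the match, which reads on the opposite strand here.
Trim34a promoter, chr7:104244207-104244506, plus strand: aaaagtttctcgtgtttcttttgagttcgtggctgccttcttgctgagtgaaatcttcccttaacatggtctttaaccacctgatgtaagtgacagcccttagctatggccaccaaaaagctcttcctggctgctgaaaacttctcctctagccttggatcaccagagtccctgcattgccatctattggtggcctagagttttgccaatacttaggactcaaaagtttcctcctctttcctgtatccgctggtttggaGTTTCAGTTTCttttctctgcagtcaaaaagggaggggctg
Trim5 promoter, chr7:104288057-104288356, minus strand: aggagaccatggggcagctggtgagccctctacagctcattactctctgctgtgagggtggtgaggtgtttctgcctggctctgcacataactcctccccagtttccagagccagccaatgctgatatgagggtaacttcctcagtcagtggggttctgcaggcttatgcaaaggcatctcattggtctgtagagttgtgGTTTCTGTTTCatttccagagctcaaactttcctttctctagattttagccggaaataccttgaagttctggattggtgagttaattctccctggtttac
Trim12a promoter, chr7:104315446-104315745, minus strand: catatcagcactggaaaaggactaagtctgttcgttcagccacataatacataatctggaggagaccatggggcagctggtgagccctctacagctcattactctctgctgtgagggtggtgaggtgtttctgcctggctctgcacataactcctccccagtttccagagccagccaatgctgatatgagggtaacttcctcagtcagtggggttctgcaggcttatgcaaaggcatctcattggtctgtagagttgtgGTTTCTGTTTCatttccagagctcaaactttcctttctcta
Trim12c promoter, chr7:104353300-104353599, minus strand: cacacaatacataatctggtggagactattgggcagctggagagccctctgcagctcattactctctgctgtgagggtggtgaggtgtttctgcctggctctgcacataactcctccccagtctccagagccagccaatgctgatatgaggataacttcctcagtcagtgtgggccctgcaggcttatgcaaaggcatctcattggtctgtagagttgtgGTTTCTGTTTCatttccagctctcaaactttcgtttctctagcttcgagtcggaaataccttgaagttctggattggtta
A match describes letters in the reference genome, and neither strain's own sequence was used.

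All 12 libraries held 32982569 to 46513232 reads in genes. Neuronal (Snap25, Syt1), astrocyte (Slc1a2), oligodendrocyte (Mbp) and microglial (Cx3cr1, Csf1r) markers were present in every library, as the tissue label says. CAST_142 stood apart: its 4 cerebellar markers summed to 843 CPM (counts scaled to library size by TMM), against at most 53.8 CPM in the other CAST animals and 25.1 to 37.4 CPM in WSB, with Pcp2 listed at 0 in every animal. Its 4 striatal markers (Drd1, Drd2, Pde10a, Adora2a) summed to 247 CPM, the lowest of all animals, against a median of 766 CPM over CAST and 566 to 879 CPM over WSB. WSB_100 had the highest sum of 3 olfactory bulb markers, at 48.3 CPM. Results are therefore also given without these animals where that matters. More or less RNA of a gene per cell and more or fewer cells of a type cannot be told apart in whole tissue.

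Of the 68 members, 47 had enough reads to be tested, 17 had few reads and 4 were listed at 0 in every animal. Those 4 are Trim32, Trim42, Trim61 and Trim69. Each lies wholly or almost wholly inside another gene (Trim32 in Astn2, Trim69 in Patl2, Trim42 in Gm15891, Trim61 in Trim60). Reads that overlap several genes are entered as ambiguous in the files, 11.1% to 16.5% of each library, so a listing at 0 is not read as absence. Trim32 is an NHL-repeat ligase known from muscle and neural progenitors.

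Reads of 26 of the 47 tested members differed between the strains (55.3%), where 42.7% of all 18425 tested genes and 39.3% of tested protein-coding genes did (edgeR's quasi-likelihood test at an adjusted p under 0.05, Benjamini-Hochberg over every gene tested). Of the 26, 18 were higher and 8 lower in CAST, beside 21.5% and 21.2% of all tested genes and 19.8% and 19.5% of protein-coding ones. Only 5 differed by at least 2-fold, 3 higher (Trim43b, Trim75, Trim43a) and 2 lower (Trim34b, Trim30a), against 12.2% of all genes (6.3% higher, 5.91% lower) and 7.46% of protein-coding genes (3.9% higher, 3.56% lower). Of these 5, Trim43b and Trim34b passed the read filter in animals of 1 strain only, so they had to differ. In 19 members the range of CAST animals was clear of the range of WSB animals, against 27.1% of all tested genes and 23.6% of protein-coding ones. With CAST_142 and WSB_100 left out, the call was lost for Trim2, Trim41, Trim56 and Trim72 and gained for Trim11.

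**Figure D1:**
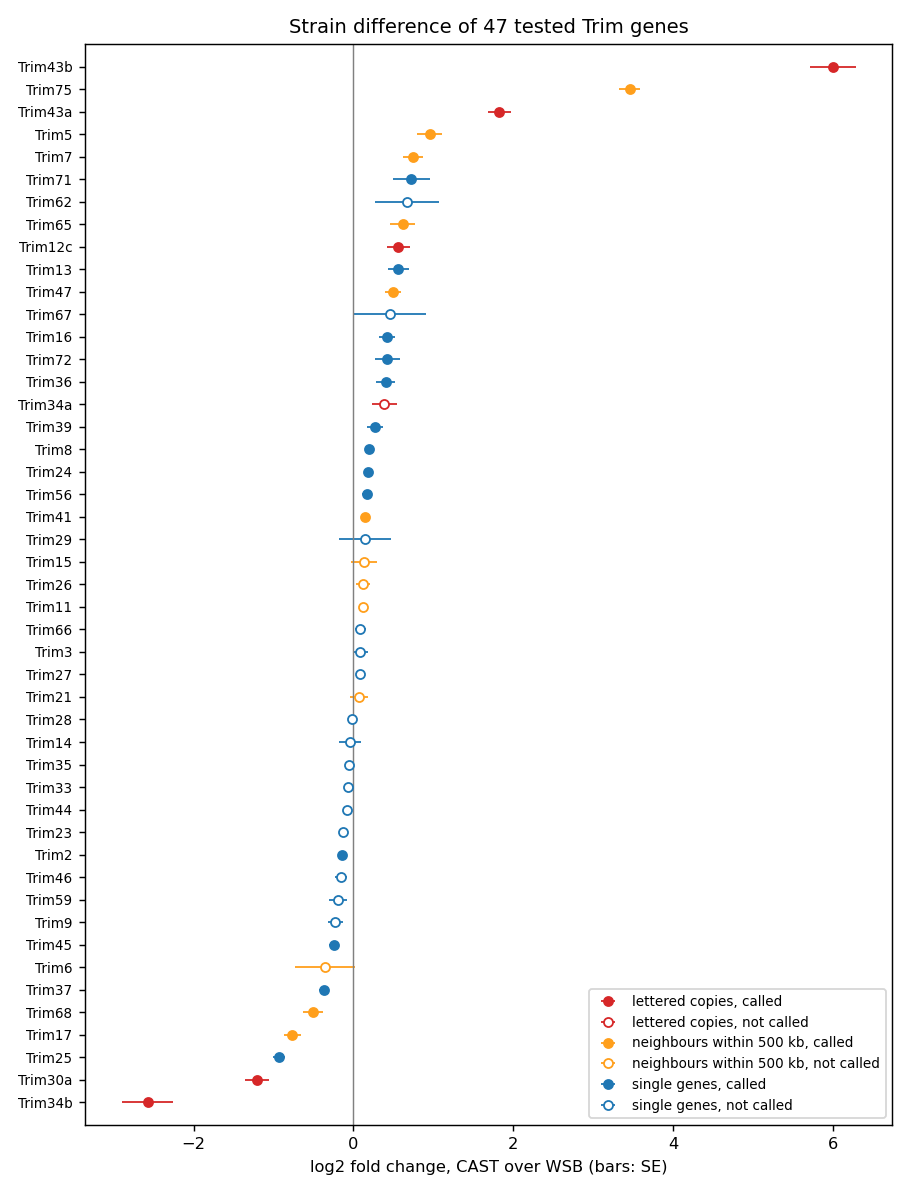
Log2 fold change of CAST over WSB for each of the 47 tested Trim genes, with standard errors as bars, sorted by value. Filled points passed the adjusted p of 0.05, and colours give the class. Lettered copies lie at both ends, from -2.58 (Trim34b) to 5.99 (Trim43b), while the single genes run from -0.93 to 0.73. Trim34b and Trim43b passed the read filter in animals of 1 strain only, so they had to differ.

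Size went with class and with level. Among lettered copies 5 of 6 tested were called, 4 of them by at least 2-fold, and the median size of the log2 fold change was 1.51. Of the 6, 2 (Trim43b and Trim34b) passed the read filter in animals of 1 strain only, so they had to differ, and the other 5 lettered copies were not tested. Among positional neighbours 8 of 13 were called, 1 by at least 2-fold, with a median size of 0.49. Among single genes 13 of 28 were called (46.4%), none by 2-fold. Their median size was 0.19, beside 0.18 over all tested protein-coding genes. Called shares were 42.7% of all tested genes and 39.3% of protein-coding ones, with 12.2% and 7.46% called at 2-fold or more. The class values are descriptions with no test between classes. The classes also differ in level. The median of the mean CPM was 2.26 for the tested lettered copies, 4.40 for neighbours and 40.2 for single genes.

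The 21 members with a mean of at least 10 CPM included 8 called and none at 2-fold, where 35.2% and 1.64% of protein-coding genes at that level were. Below 10 CPM, 18 of 26 tested members were called and 5 reached 2-fold, where 47.6% and 19.2% of protein-coding genes did. The 5 members past 2-fold had means of 0.320 to 3.34 CPM over the 12 animals.

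**Figure D2:**
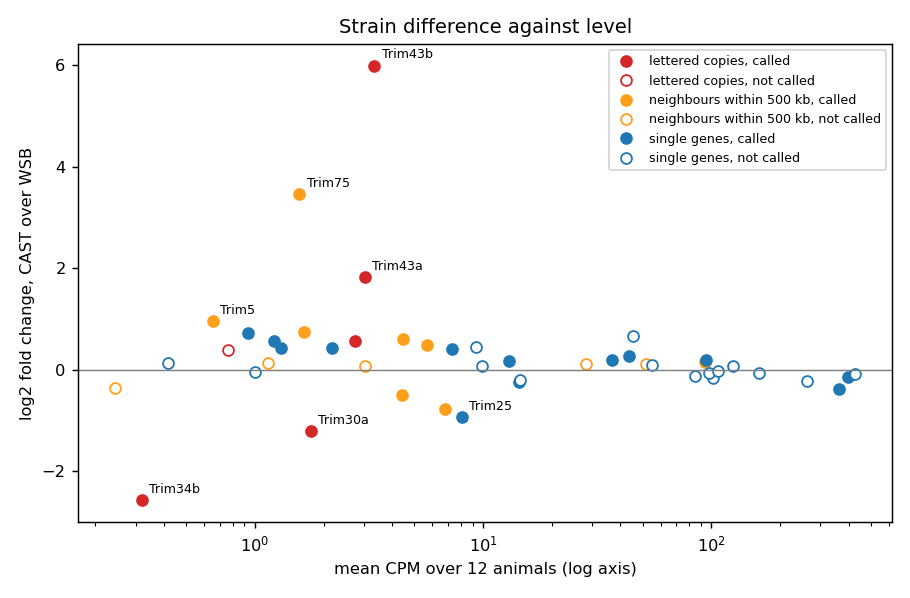
Log2 fold change of CAST over WSB against the mean CPM over 12 animals (log axis), 1 point per tested member. Filled points were called. The 5 members past 2-fold sit between 0.320 and 3.34 CPM, and points above 10 CPM stay within -0.37 to 0.67.

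Trim43b, Trim43a and Trim43c are PRY-SPRY genes of chromosome 9 whose family is known from the preimplantation embryo. Trim43b (89084624 to 89092835) had a lowest, median and highest level of 5.41, 5.73 and 9.71 CPM in CAST and of 0.0522, 0.0788 and 0.230 CPM in WSB. In reads this was 215 to 430 against 2 to 9, and the groups lay far apart. Trim43b entered the test through CAST animals alone, so it had to differ. The difference was 5.99 ± 0.29 on the log2 scale (SE, adjusted p = 1.74e-09 by edgeR; n = 6 each), or 63.8-fold. The highest WSB animal was WSB_100, and without it the log2 difference was 6.40.

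Trim43a (88580891 to 88588819) was at 3.77, 4.52 and 6.37 CPM (lowest, median, highest) in CAST and at 1.10, 1.31 and 1.62 CPM in WSB. Again every CAST animal was above every WSB animal, by 3.54-fold (log2 1.82 ± 0.15 SE, adjusted p = 2.75e-07 by edgeR). Trim43c, which lies between its sister genes on the map, went the other way. It had 0 to 3 reads per CAST animal and 5 to 16 per WSB animal, too few to enter the test; with no filter on low counts its adjusted p was 7.18e-05 by edgeR. All but 11.9% of its body overlaps another gene. It and Trim12a, below, were chosen after their values were seen.

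Within each strain the 3 copies took different shares of the reads counted to them. The part of each strain's own sequence or copy number in these shares was not tested. In CAST Trim43b took a median of 57.9% and Trim43a 41.8%. In WSB Trim43a took 79.1%, Trim43c 14.1% and Trim43b 4.69%. Summing the 3 copies before the fit, an alternative chosen after the data were seen, gave 11.3 ± 2.56 CPM (CAST) against 1.67 ± 0.257 CPM (WSB; mean ± SD, n = 6 each), or 6.76-fold (log2 2.76 ± 0.15 SE, adjusted p = 8.02e-09 by edgeR). Trim43a and Trim43b hold nearly all of these reads and each was higher in CAST, so the direction of the sum adds no separate evidence.

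The chromosome 7 cluster holds 10 members between 104218793 and 104507849, all of the PRY-SPRY class: Trim6, Trim34a, Trim5, Trim12a, Trim34b, Trim12c, Trim30b, Trim30c, Trim30a and Trim30d, in map order. The direction of the strain difference varied along it. Of the 6 tested members, 2 were higher in CAST (Trim5, Trim12c), 2 lower (Trim34b, Trim30a) and 2 not called (Trim6, Trim34a). Over all tested genes 21.5% were higher and 21.2% lower. Trim34b passed the read filter in WSB animals only, so it had to differ.

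Trim34b was at 0.0245, 0.0909 and 0.181 CPM (lowest, median, highest) in CAST and at 0.354, 0.559 and 0.676 CPM in WSB, which is 1 to 8 against 14 to 29 reads. Trim34b entered the test through WSB animals alone, so it had to differ. Its log2 difference was -2.58 ± 0.32 (SE, adjusted p = 2.16e-05 by edgeR). Its near copy Trim34a was at 0.760, 0.869 and 0.999 CPM in CAST and at 0.531, 0.605 and 0.861 CPM in WSB, with overlapping ranges (log2 0.39 ± 0.15 SE, adjusted p = 0.0564). Leaving out WSB_138 or WSB_147 brought Trim34a past the threshold (adjusted p = 0.0374 and 0.0245). Trim34b took a median of 9.26% of the reads of the pair in CAST and 44.6% in WSB. Summed, the pair stood at 0.954 ± 0.0891 CPM (CAST) against 1.21 ± 0.238 CPM (WSB; mean ± SD, n = 6 each) and was not called (log2 -0.34 ± 0.14 SE, adjusted p = 0.0692 by edgeR), except without WSB_120 (adjusted p = 0.0229).

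Trim5, the mouse gene named for the primate retrovirus restriction factor, was at 0.783, 0.855 and 1.02 CPM in CAST and at 0.307, 0.468 and 0.582 CPM in WSB, with no overlap (log2 0.95 ± 0.16 SE, adjusted p = 2.21e-04 by edgeR). Trim12c was at 2.33, 3.06 and 4.52 CPM in CAST and at 1.96, 2.28 and 2.42 CPM in WSB (log2 0.56 ± 0.15 SE, adjusted p = 0.00691). The lowest CAST animal, CAST_142, overlapped the WSB range, and without CAST_142 and WSB_100 the log2 difference was 0.66. Trim12a had 7 to 14 reads in each WSB animal and 0 in all 6 CAST animals. Over the 6 CAST animals together a count of 0 allows up to 0.0117 CPM (3 reads, counting error only). Reads counted to Trim12a were thus at least 22.9-fold higher in WSB. This bound does not cover differences in how each strain's reads are assigned to near copies, which were not tested. Summed, Trim5, Trim12a and Trim12c were at 4.15 ± 0.831 CPM (CAST) against 2.93 ± 0.285 CPM (WSB; mean ± SD, n = 6 each; log2 0.50 ± 0.13 SE, adjusted p = 0.00671 by edgeR). The 3 promoter windows printed above for these genes hold the same 11 letters, GTTTCTGTTTC. The part of this element in the strain values was not tested.

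Trim30a, which dampens Toll-like receptor signalling and is induced by interferon, was at 0.633, 1.15 and 1.28 CPM in CAST and at 2.28, 2.40 and 2.66 CPM in WSB. The groups did not overlap, and CAST was 2.31-fold lower (log2 -1.20 ± 0.15 SE, adjusted p = 1.54e-05 by edgeR). Trim30b, Trim30c and Trim30d had at most 9 reads in any animal. With no filter on low counts none of these 3 was called (adjusted p = 0.239 to 0.601 by edgeR). The 4 copies summed fell by 1.07 on the log2 scale (adjusted p = 2.06e-05), close to Trim30a alone, which held a median of 81.9% of their reads in CAST and 90.8% in WSB.

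**Figure D3:**
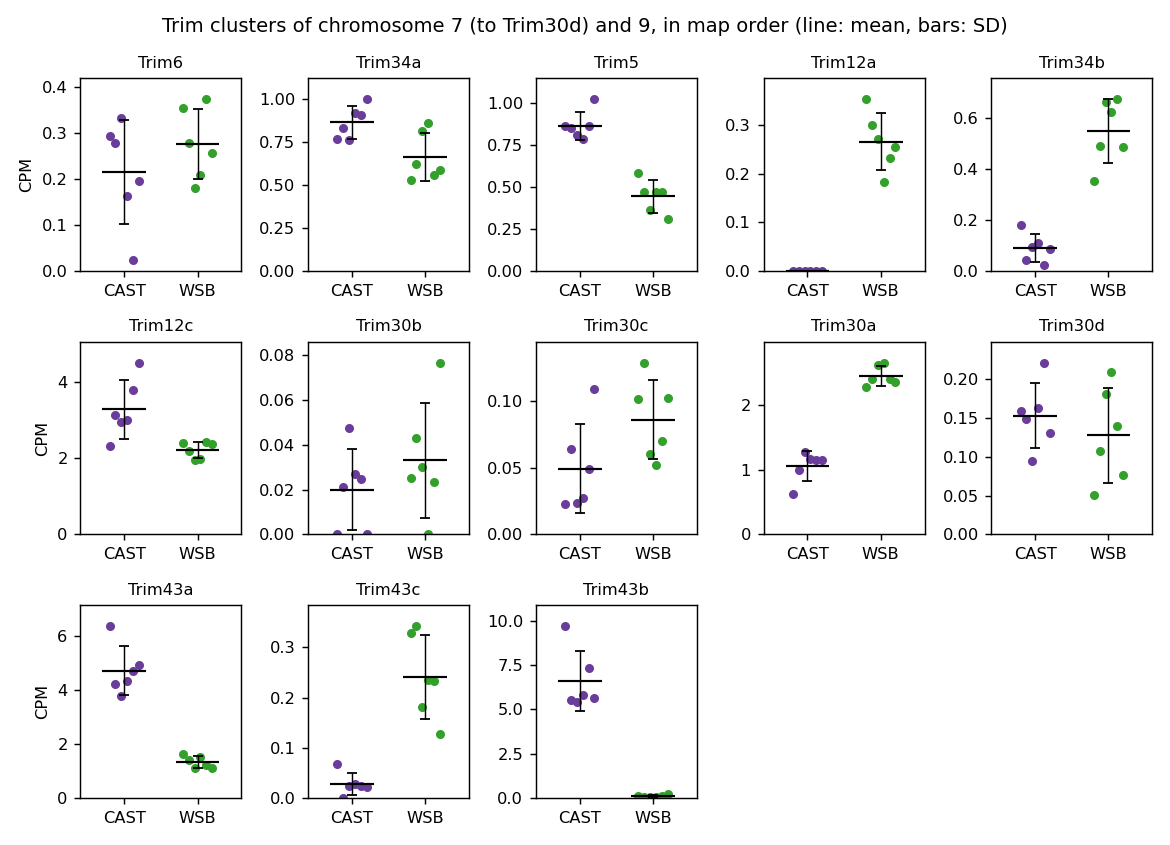
CPM in each animal (CAST purple, WSB green; line and bars, mean and SD, n = 6) of the chromosome 7 cluster from Trim6 to Trim30d and of the 3 Trim43 genes, in map order, each panel on its own linear axis from 0. Trim12a, Trim34b, Trim30a and Trim43c are higher in every WSB animal than in any CAST animal, and Trim5, Trim43a and Trim43b the reverse.

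Alignments entered as not unique, and so in no gene's count, made up 15.6% to 16.1% of entries in CAST and 16.99% to 17.5% in WSB, and the ranges do not overlap. Their part in the values of the copies was not tested, nor was that of each strain's own sequence or copy number. Of 16 interferon-stimulated genes listed for comparison, 7 were lower in CAST and 3 higher, beside 21.2% and 21.5% of all tested genes. Of the 16, 8 were called at 2-fold or more, beside 12.2% of all tested genes. The 7 lower genes ran from log2 -4.58 (Ifi44) to -0.84 (Irf7), and the 3 higher were Mx1 (2.07), Mx2 (1.10) and Ifi27 (0.35). Irf7, a regulator of interferon genes, was at 0.693 ± 0.190 CPM (CAST) against 1.25 ± 0.189 CPM (WSB; mean ± SD, n = 6 each; adjusted p = 0.0022 by edgeR). The summed level of the 16 was 75.8 to 97.1 CPM over CAST (at most 86.3 CPM without CAST_142) and 85.8 to 94.2 CPM over WSB. Stat2, not called, had the highest mean of the 16, at 33.7 CPM (CAST) and 36.5 CPM (WSB). The part of the summed level in the Trim results was not tested. Of 5 microglial markers 3 were lower in CAST (C1qa, Aif1, Tmem119), beside 21.2% of all tested genes. Cx3cr1 and Csf1r, the most abundant of the 5, were not called. The sum of the 5 was 93.3 CPM (CAST_142) to 165.0 CPM over CAST and 154.6 to 171.6 CPM over WSB. Of 4 testis markers only Ddx4 was tested, and it was lower in CAST (mean 1.15 CPM, against 3.63 CPM in WSB). Tnp1 was listed at 0 in every animal, and Prm1 and Prm2 reached at most 0.37 CPM. The sum of the 4, mostly Ddx4, was 1.26 to 1.43 CPM over CAST and 1.91 to 6.16 CPM over WSB. The part of these cell types in the Trim values was not tested.

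Trim75 also differed by a large factor, without a near-identical copy in the reference. It is a PRY-SPRY gene of chromosome 8 (64980884 to 64987831) that shares only 0.258% of its 32-base words with other genes and overlaps none. It was at 2.26, 2.92 and 3.41 CPM in CAST (lowest, median, highest; 106 to 139 reads) and at 0.235, 0.254 and 0.303 CPM in WSB (9 to 13 reads). The difference was 10.98-fold (log2 3.46 ± 0.13 SE, adjusted p = 2.06e-10 by edgeR), the smallest adjusted p of all members. Its neighbour Trim60 had 2 to 7 reads per CAST animal and 0 to 2 per WSB animal, with an adjusted p of 0.0192 when no filter was applied, and Trim61 inside it was listed at 0.

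Each member was listed here under 1 domain class only, so the PRY-SPRY class leaves out any such domain in members listed elsewhere, as under COS box. Of its 26 tested members 11 were higher in CAST, 5 lower and 10 not called. So 61.5% were called, beside 39.3% of all protein-coding genes, 47.6% of those under 10 CPM and 35.2% of those at 10 CPM or more. Trim43b and Trim34b are counted in that share. Each passed the read filter in animals of 1 strain only, so they had to differ. The median of the tested members' mean levels was 3.03 CPM. Outside the copies above, Trim25, Trim17 and Trim68 were lower and Trim7, Trim16, Trim39, Trim41, Trim65 and Trim72 higher. Trim25, an interferon-induced ligase that acts on the RNA sensor RIG-I, was at 4.99, 5.61 and 5.94 CPM in CAST and at 9.45, 10.7 and 11.7 CPM in WSB. It is a single gene with no overlap and 0.593% shared words, and it was 1.91-fold lower in CAST (log2 -0.93 ± 0.07 SE, adjusted p = 2.24e-07 by edgeR). Trim17, which promotes death of developing neurons, was lower by a log2 change of -0.76 (adjusted p = 5.21e-05), but other genes cover all but 46.2% of its body. Trim7 rose by 0.75 with 65.2% of its body free. Trim21, the cytosolic antibody receptor, differed by 0.07 ± 0.11 (SE, adjusted p = 0.631), and Trim35, the most abundant of this domain class, by -0.06 ± 0.05 (adjusted p = 0.397). Trim65 and Trim47 overlap each other and both rose, by 0.61 and 0.49, with 42.2% and 75.0% of their bodies free. Trim68, a neighbour of Trim21, fell by 0.50 ± 0.12 (SE, adjusted p = 0.00522), and Trim16, which takes part in clearing damaged lysosomes, rose by 0.42 ± 0.10 (adjusted p = 0.00379). Trim11, Trim14, Trim15, Trim26 and Trim27 were not called, with log2 differences from -0.04 to 0.13. Trim38, Trim50 and Trim80 had at most 16 reads in any animal and were not tested.

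Of the members with NHL repeats or a COS box, 7 were tested, and 2 were higher in CAST (Trim36, Trim71), 1 lower (Trim2) and 4 not called. The counts stand beside 42.7% of all tested genes and 39.3% of protein-coding genes called. Trim2, an NHL-repeat ligase of neurofilament light chain, was at 362, 373 and 404 CPM in CAST and at 379, 424 and 449 CPM in WSB. Its ranges overlapped, and the call (log2 -0.15 ± 0.05 SE, adjusted p = 0.0326 by edgeR) was lost in 9 of 20 alternatives, among them leaving out CAST_142 and WSB_100 (adjusted p = 0.0683). Trim9, which binds the netrin receptor DCC in growing axons, was at 204, 250 and 277 CPM in CAST and at 247, 282 and 338 CPM in WSB. It was not called (log2 -0.23 ± 0.09 SE, adjusted p = 0.0636 by edgeR), though DESeq2 called it (adjusted p = 0.0482), as did edgeR without CAST_201 or WSB_135. Trim46, which bundles microtubules at the axon initial segment, differed by -0.16 ± 0.07 (adjusted p = 0.0929) and Trim3, a postsynaptic ligase, by 0.08 ± 0.09 (adjusted p = 0.508). Trim36, another COS-box protein, was the one called member of that class, at 6.85, 8.34 and 9.99 CPM in CAST and 4.84, 6.08 and 7.995 CPM in WSB (log2 0.40 ± 0.12 SE, adjusted p = 0.0165). Trim71, a stem cell regulator with NHL repeats, rose by 0.73 ± 0.23 (SE, adjusted p = 0.0199) at a mean of 0.928 CPM.

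Of the 4 PHD-bromodomain members, Trim24, a nuclear receptor cofactor, rose by 0.18 ± 0.05 (SE, adjusted p = 0.00871 by edgeR), at 39.2 ± 2.51 CPM (CAST) against 34.6 ± 1.53 CPM (WSB; mean ± SD, n = 6 each). Trim28, the corepressor of KRAB zinc finger proteins, had the smallest difference of the family, at 107 ± 6.08 CPM (CAST) against 108 ± 3.77 CPM (WSB; mean ± SD, n = 6 each; log2 -0.02 ± 0.04 SE, adjusted p = 0.774). Trim33 and Trim66 were not called. Among the members with a MATH, ARF, filamin or transmembrane part, Trim37 was lower, at 294, 315 and 340 CPM in CAST and 376, 397 and 469 CPM in WSB, with no overlap (log2 -0.37 ± 0.06 SE, adjusted p = 1.21e-04). Trim37 limits centrosome assembly and acts at peroxisomes. Trim45 fell by 0.25 and Trim13, a ligase of the endoplasmic reticulum, rose by 0.56 with 59.6% of its body free and 27.8% of its words shared, while Trim23 and Trim59 were not called. Trim8, a regulator of cytokine signalling, was at 92.0, 102 and 104 CPM in CAST and at 86.1, 88.4 and 90.1 CPM in WSB, so even a log2 difference of 0.19 ± 0.04 (SE, adjusted p = 5.38e-04) left the strains apart. Trim56, a ligase of the innate immune response, was called at 0.17 ± 0.06 (adjusted p = 0.0379), but 12 of 20 alternatives lost that call. Trim29 was not called (0.14 ± 0.33 SE, adjusted p = 0.757). Trim31, Trim40 and Trim52 had at most 4 reads in any animal.

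To rank members by level, CPM was divided by length, first of exons and then of the gene body. Trim44, a member with a zinc finger of the ubiquitin protease type in place of the RING, was highest at 75.9 CPM per exon kb over the 12 animals, before Trim37 at 50.2, Trim35 at 35.1, Trim3 at 27.2 and Trim46 at 26.8. Trim44 was at 416 ± 8.76 CPM (CAST) against 441 ± 13.1 CPM (WSB; mean ± SD, n = 6 each) and was not called (adjusted p = 0.0681 by edgeR), though DESeq2 called it (adjusted p = 0.00686), as did edgeR without WSB_147 (adjusted p = 0.049). The order depended on the length used: per kb of gene body Trim35 was first at 11.3 CPM, then Trim41 at 8.57 and Trim46 at 8.38, with Trim44 at 3.98. Per exon kb the lettered copies ran from 0.173 (Trim34b) to 1.52 (Trim43a) CPM among those tested. Members known from striated muscle (Trim54, Trim55, Trim63) and from red blood cell precursors (Trim10, Trim58) had at most 21 reads in any animal and were not tested. The call of Trim72, the muscle membrane repair protein (log2 0.42, adjusted p = 0.0431), was lost in 11 of 20 alternatives. Of 6 muscle markers, Acta1 was listed at 0 in every animal, Myh4 was lower in CAST and 2 others were tested and not called. The sum of the 6 was 2.33 to 2.98 CPM over CAST and 1.61 to 3.26 CPM over WSB.

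Trim62 and Trim67, both single genes, followed 1 animal more than strain. Trim62 was at 163 CPM in CAST_142 and at 27.9 to 44.1 CPM in the other 11 animals. Trim67, a COS-box relative of Trim9 known from the cerebellum, was at 33.8 CPM in CAST_142 and at 4.58 to 9.80 CPM in the others. Neither was called with these animals (log2 0.67 and 0.45) or without CAST_142 and WSB_100 (log2 0.04 and -0.28). Trim3 (171 CPM), Trim39 (65.8 CPM) and Trim65 (8.29 CPM) were also highest in CAST_142, in which Cbln3, a granule cell gene of the cerebellum, was at 344 CPM, against at most 11.9 CPM elsewhere. With all animals Trim39 was higher in CAST by 0.27 (adjusted p = 0.0366), and without CAST_142 and WSB_100 by 0.17 (adjusted p = 0.00371). Its call was lost when WSB_120, WSB_135, WSB_138 or WSB_147 was left out. Trim65 was called without CAST_142 and WSB_100 too (log2 0.45, adjusted p = 0.00416). The part of tissue make-up in these values was not tested.

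**Figure D4:**
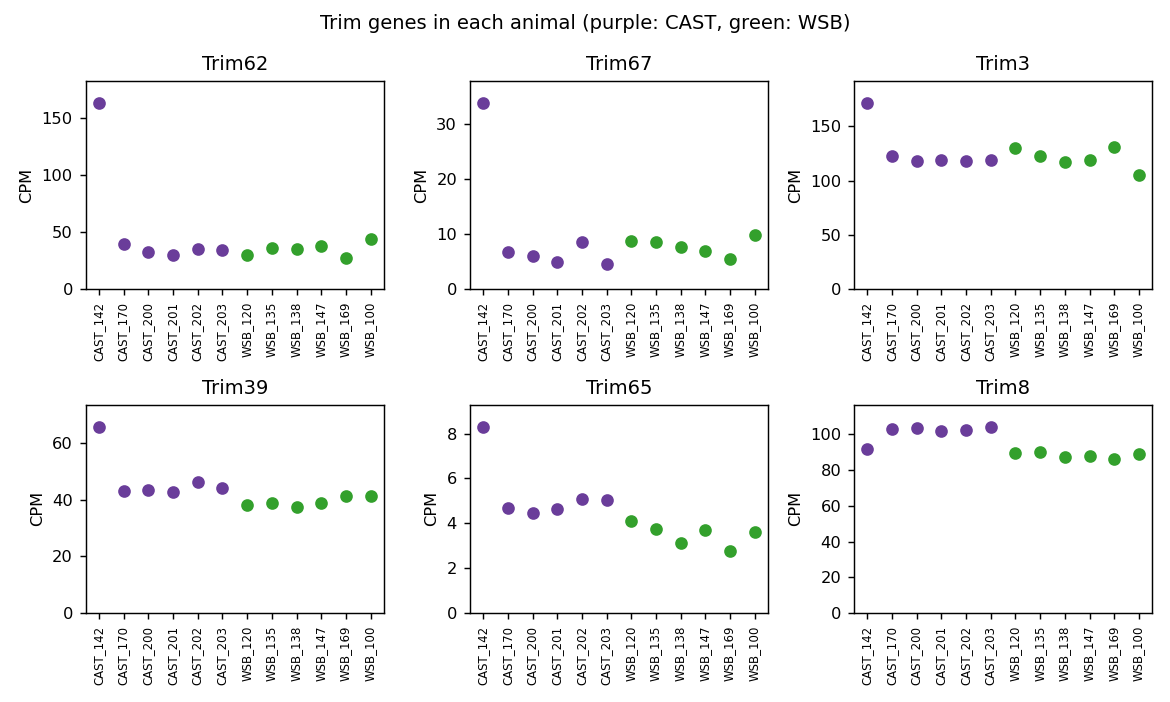
CPM of 6 Trim genes in each animal (CAST purple, WSB green), each panel on a linear axis from 0. CAST_142 is highest for Trim62, Trim67, Trim3, Trim39 and Trim65 and the lowest CAST animal for Trim8.

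Genes that work with these proteins were listed for comparison, and the counts stand beside the 42.7% of all tested genes and 39.3% of protein-coding genes that were called. Of 9 tested family members without a Trim symbol, 3 were higher (Mid1, Pml, Cmya5) and 2 lower (Rnf135, Bspry). Mid1, a microtubule-binding COS-box ligase and relative of Trim9, was at 14.5 ± 4.20 CPM (CAST) against 6.91 ± 0.932 CPM (WSB; mean ± SD, n = 6 each; edgeR adjusted p = 2.06e-04). Of 16 tested genes of RNA and DNA sensing 2 were higher (Ikbke, Ikbkg) and 3 lower (Tbk1, Irf7, Traf6), and the RIG-I gene Ddx58 was not called, at 5.96 ± 0.472 and 5.70 ± 0.318 CPM (adjusted p = 0.513). Of 14 KRAB corepressor genes 2 were higher (Hdac1, Smarcad1) and none lower. Of 12 tested netrin and axon genes none was called by edgeR, 0 had an unadjusted p under 0.05, and DESeq2 called 0. Of 11 tested ubiquitin-activating and conjugating enzymes 1 was higher and 3 were lower, among them Ube2n, which builds ubiquitin chains with several Trim ligases, at 76.0 ± 3.21 and 94.6 ± 5.08 CPM (adjusted p = 4.93e-05). The median log2 difference of these 5 lists lay between -0.05 and 0.04, beside 0.00464 over all tested genes.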

How the data were processed

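Reads of 12 brains (6 CAST, 6 WSB; 2 lanes each, lanes 5 and 6) were processed to counts by the authors. The tools named per the submitters' processing notes are HTSeq, TopHat2 2.1.1, cutadapt and DESeq2. The deposited values are raw read counts per gene, with 5 further lines for reads assigned to no gene, which entered neither library sizes nor any test. These lines held 4.04% to 4.95% (no feature), 11.1% to 16.5% (ambiguous) and 15.6% to 17.5% (not unique) of the entries per animal, and 62.9% to 68.0% were in genes. For genome build, annotation and strand of counting the entry is: not given in the sources used here. Gene symbols and positions came from GENCODE M21 (GRCm38), which holds 53360 of the 53465 listed identifiers.

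Lanes were summed per animal. All genes were fitted in R 4.3.3 with edgeR 4.0.16, TMM scaling and its quasi-likelihood test, after its filter by expression (10 reads, or 0.241 CPM, in 6 animals), with Benjamini-Hochberg adjustment over all 18425 tested genes. SE is the size of the log2 fold change divided by the root of F. The script was tested on simulated data. Shared words were all 32-base words of the transcripts, and coding sequences were aligned with MAFFT 7.526. Alternatives were other scalings, filters of no minimum and of a mean of 1 CPM, each lane alone, each animal left out, neighbour distances of 100 kb and 2 Mb, and DESeq2 1.42.0. The labels give each brain its own number, read here as 1 animal each, with no word on litters or separate dissections, so p-values measure the spread between these samples, which may be partly technical. Floors cover counting error only.

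The members, the classes and the companion and marker lists were chosen with earlier results of these data known. Values are given for every tested lettered copy, every member called at 2-fold or more, and the most abundant member and the one of smallest p in each domain class. Other members named with values were chosen after their values were seen.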

Additional observations from a re-analysis of the deposited data

Results flagged for a closer look

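In 11 of 94 groups (47 members in 2 strains) the highest or lowest animal stood far from the other 5 by Dixon's criterion, which chance meets in about 1 of 20 groups. CAST_142 accounted for 7 of the 11. It was the highest CAST animal for Trim62 (163.1 CPM, next 39.75), Trim67 (33.8 CPM, next 8.592), Trim3 (171.0 CPM, next 122.3), Trim39 (65.77 CPM, next 46.45), Trim65 (8.291 CPM, next 5.082) and Trim28 (118.9 CPM, next 105.4), and the lowest for Trim8 (92.02 CPM, next 102.0). The cerebellar marker sum of that animal was 843 CPM and its striatal marker sum 247 CPM, and their part in these values was not tested.

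In WSB, Trim43b was highest in WSB_100 (0.2303 CPM, next 0.1012), Trim35 in WSB_138 (173.5 CPM, next 166.2) and Trim45 in WSB_135 (17.72 CPM, next 15.55). In CAST, Trim5 was highest in CAST_203 (1.021 CPM, next 0.8592).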

How the results depend on the processing

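Of the 26 called members, 16 were called under every alternative that tested them, and none of the 26 changed sign there. For 14 of the 16 that was all 20 alternatives. Trim34b was tested in 17, not with either lane alone or a mean of at least 1 CPM, and Trim5 in 19, not with the latter. The other 10 lost the call somewhere (Trim2, Trim13, Trim16, Trim36, Trim39, Trim41, Trim45, Trim56, Trim71, Trim72), and 5 others gained one (Trim9, Trim11, Trim23, Trim34a, Trim44). Sign changes occurred in the uncalled Trim3, Trim14, Trim29, Trim62 and Trim67. With no filter on low counts 8 members instead of 5 differed by at least 2-fold, since more members were tested. From lane 6 alone 8 instead of 13 single genes were called, and the cause was not tested. Leaving out 1 animal at a time gave 22 to 27 called members, 15 to 18 higher and 7 to 10 lower, with 5 to 6 at 2-fold. By class this gave 5 to 6 lettered copies, 8 neighbours and 9 to 14 single genes. DESeq2 called 29 members. No paired analysis was possible because the strains share no replicate number. Members of few reads and members inside other genes limit what can be seen of the copies.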
